A study of Mus musculus with 2 samples.

Results

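The genes described here carry names of nuclear subunits of the respiratory chain and the ATP synthase. They were chosen by name among protein-coding genes of the GENCODE M21 annotation. Complexes were assigned by name alone, and whether each protein is a subunit of that complex was not checked. Names beginning with Ndufa, Ndufb, Ndufc, Ndufs or Ndufv and a number gave complex I, Sdha to Sdhd gave complex II, names beginning with Uqcr gave complex III, names beginning with Cox4 to Cox8 gave complex IV, and names beginning with Atp5 gave complex V. The rule took 85 of 21670 protein-coding genes (autosomes and X chromosome), namely 37 of complex I, 4 of complex II, 8 of complex III, 18 of complex IV and 18 of complex V. It used no measured value. It kept Atp5o as 2 gene models of that name and left out genes named otherwise, such as Cyc1 and Ndufab1.

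The data were 2 DNase-seq libraries, replicates 1 and 2 of a single group, from kidney of B6CASTF1/J females at 8 to 10 months of age. This strain is the first-generation cross of C57BL/6J with CAST/EiJ, and its CAST/EiJ chromosome set differs from the reference genome. The libraries came from separate tissue samples under 1 donor entry, and no source used here states whether these were separate animals. The series holds no control tissue and no treatment, so the subunit genes were set beside all protein-coding genes of the same libraries, and no test across samples was possible.

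The respiratory chain passes electrons from NADH and succinate through complexes I, II, III and IV to oxygen, and the proton gradient built by complexes I, III and IV drives the ATP synthase, complex V. Most subunits are encoded in the nucleus and are needed in nearly every cell, while some exist as paralogous forms used in muscle, lung or testis. Tubular epithelium of the kidney reabsorbs solutes at high energy cost and is rich in mitochondria. Factors that bind the motifs NRF1, ETS (the GABP site), YY1 and ERR are known regulators of subunit genes in mammals.

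DNase I cuts accessible DNA, and the authors' signal of a peak rises with the number of cuts there. An open promoter had a region found in both libraries that overlapped the 500 bases on either side of a protein-coding transcription start site (TSS). The signal of a gene is that of its strongest such region. A footprint is a short stretch within accessible DNA that was cut less than its surroundings, and a shared footprint was called in both libraries at overlapping positions. A promoter was called CpG-rich where a TSS window had at least 50% GC and an observed-to-expected CpG ratio of at least 0.6.

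Replicate 1 listed 137060 peaks and replicate 2 listed 124976, which joined into 96735 shared regions. Signals were whole multiples of a step of 0.00827 in replicate 1 and 0.00834 in replicate 2, and if a step is 1 tag the libraries held 120.9 and 119.9 M tags (M, mega). Of 12 kidney markers, 9 had an open promoter, beside 63.0% of all protein-coding genes. The tubule genes Lrp2, Miox, Umod and Scnn1g had the highest mean signals of these, between 5.06 and 5.88. Slc34a1, Slc12a1, Slc12a3, Atp6v1b1 and Slc5a2 were open at lower means, between 1.17 and 3.03. Aqp2 and Nphs1 were among the kidney markers without an open promoter. Of 11 markers of muscle, germ, immune and nerve cells 2 were open, Actn2 at 0.959 ± 0.0119 and Dazl at 3.80 ± 0.0480 (SD, n = 2). In whole tissue, a region open in few cells and a region weakly open in many cells cannot be told apart. Reads of the CAST/EiJ chromosomes may map less well, and the part of this in any value was not tested.

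Promoter sequences of 67 of the 85 genes were matched by symbol in RefSeq (build GRCm38.p6), each covering 250 bases before to 50 after a start. The following are shown because they carry the patterns below: a strong promoter of a c-subunit gene (Atp5g1), promoters with an NRF1 match inside a footprint (Sdhb, Cox6a1), an open and a closed paralogue (Cox8a, Cox8b), the open muscle-type paralogue (Cox7a1) and a complex I promoter with many footprints (Ndufs7). Capitals mark bases inside shared footprints.
Atp5g1 (chr11:96075582-96075881, minus strand): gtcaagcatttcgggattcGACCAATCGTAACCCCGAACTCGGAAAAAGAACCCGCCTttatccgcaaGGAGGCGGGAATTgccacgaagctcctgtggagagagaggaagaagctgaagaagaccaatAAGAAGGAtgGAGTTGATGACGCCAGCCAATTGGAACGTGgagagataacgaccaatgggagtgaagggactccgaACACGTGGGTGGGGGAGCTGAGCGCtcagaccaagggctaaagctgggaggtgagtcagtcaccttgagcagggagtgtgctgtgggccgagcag
Sdhb (chr4:140961021-140961320, plus strand): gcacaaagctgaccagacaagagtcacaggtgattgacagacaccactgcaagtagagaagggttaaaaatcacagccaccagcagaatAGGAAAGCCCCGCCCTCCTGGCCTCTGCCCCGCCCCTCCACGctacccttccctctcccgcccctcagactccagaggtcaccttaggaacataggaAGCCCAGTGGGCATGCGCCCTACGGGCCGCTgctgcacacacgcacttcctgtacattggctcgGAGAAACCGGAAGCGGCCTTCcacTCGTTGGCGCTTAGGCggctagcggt
Cox6a1 (chr5:115348909-115349208, minus strand): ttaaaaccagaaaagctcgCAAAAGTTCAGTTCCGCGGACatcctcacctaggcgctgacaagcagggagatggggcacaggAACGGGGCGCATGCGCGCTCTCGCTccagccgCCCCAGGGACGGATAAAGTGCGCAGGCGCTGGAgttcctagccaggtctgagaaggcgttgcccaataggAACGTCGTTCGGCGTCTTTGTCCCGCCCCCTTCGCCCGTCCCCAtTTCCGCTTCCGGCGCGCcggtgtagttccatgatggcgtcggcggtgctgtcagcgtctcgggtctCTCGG
Cox8a (chr19:7217567-7217866, minus strand): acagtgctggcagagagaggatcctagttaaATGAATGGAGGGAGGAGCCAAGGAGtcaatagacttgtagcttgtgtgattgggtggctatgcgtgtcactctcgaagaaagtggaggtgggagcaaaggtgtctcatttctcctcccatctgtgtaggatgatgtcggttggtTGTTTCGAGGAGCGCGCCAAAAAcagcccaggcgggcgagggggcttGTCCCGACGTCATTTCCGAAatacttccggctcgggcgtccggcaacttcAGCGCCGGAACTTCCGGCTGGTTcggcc
Cox8b (chr7:140900397-140900696, minus strand): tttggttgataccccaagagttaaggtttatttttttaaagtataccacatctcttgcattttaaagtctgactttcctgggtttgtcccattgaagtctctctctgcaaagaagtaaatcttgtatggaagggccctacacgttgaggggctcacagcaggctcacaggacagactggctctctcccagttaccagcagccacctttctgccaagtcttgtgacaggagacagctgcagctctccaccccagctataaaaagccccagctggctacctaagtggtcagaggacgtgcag
Cox7a1 (chr7:30183921-30184220, plus strand): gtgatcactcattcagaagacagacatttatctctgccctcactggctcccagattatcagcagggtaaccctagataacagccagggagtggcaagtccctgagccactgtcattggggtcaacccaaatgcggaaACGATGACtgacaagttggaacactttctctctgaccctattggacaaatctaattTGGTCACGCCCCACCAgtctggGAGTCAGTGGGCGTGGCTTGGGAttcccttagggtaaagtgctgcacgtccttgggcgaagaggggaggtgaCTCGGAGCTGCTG
Ndufs7 (chr10:80249199-80249498, plus strand): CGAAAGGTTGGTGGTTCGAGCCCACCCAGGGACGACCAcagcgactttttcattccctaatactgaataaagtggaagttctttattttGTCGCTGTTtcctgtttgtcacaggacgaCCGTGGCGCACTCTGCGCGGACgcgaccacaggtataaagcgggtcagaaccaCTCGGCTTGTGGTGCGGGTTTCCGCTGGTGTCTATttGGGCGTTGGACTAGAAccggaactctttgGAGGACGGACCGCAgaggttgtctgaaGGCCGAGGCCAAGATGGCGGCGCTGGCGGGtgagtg
Footprints covered 115 bases in Atp5g1, 110 in Sdhb, 145 in Cox6a1, 91 in Cox8a, 60 in Cox7a1 and 164 in Ndufs7, and none in Cox8b. The Cox8b stretch held 2 CpG dinucleotides, against 19 in Cox8a and 32 in Cox6a1.

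Nearly all subunit genes had an open promoter in this kidney, and those without one were mostly paralogues known from other tissues. A promoter was open in 77 of 85 subunit genes (90.6%), beside 63.0% of all protein-coding genes. All 66 subunit genes with a CpG-rich promoter were open, beside 91.9% of CpG-rich genes, and 11 of the 19 CpG-poor ones were open (57.9%), beside 33.4% of CpG-poor genes. Subunit promoters were CpG-rich in 77.6% of cases, beside 50.5% of all genes. By complex, 36 of 37 genes were open in complex I, 4 of 4 in complex II, 8 of 8 in complex III, 13 of 18 in complex IV and 16 of 18 in complex V. Each library alone gave the same count of 77.

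Open subunit promoters had a higher signal than the typical open promoter. Their median signal was 7.97, with medians of 6.90 in replicate 1 and 8.19 in replicate 2, beside 4.78 over all 13643 open promoters and 5.87 over the open CpG-rich ones. Of the 77, 68 lay above the median of all open promoters. In the top 10% lay 9, close to the share that holds by definition. Of the 66 CpG-rich subunit promoters 59 lay above that median, beside 5906 of the 10055 open CpG-rich ones. In the top 10% lay 9 of the 66, beside 1279 of the 10055. The medians by complex were 8.05 for complex I, 8.48 for complex II, 7.44 for complex III, 5.60 for complex IV and 8.29 for complex V. The spread within a complex was wide: in complex I, mean signals ran between 1.05 and 17.6, and in complex III between 2.99 and 27.0.

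**Figure D1:**
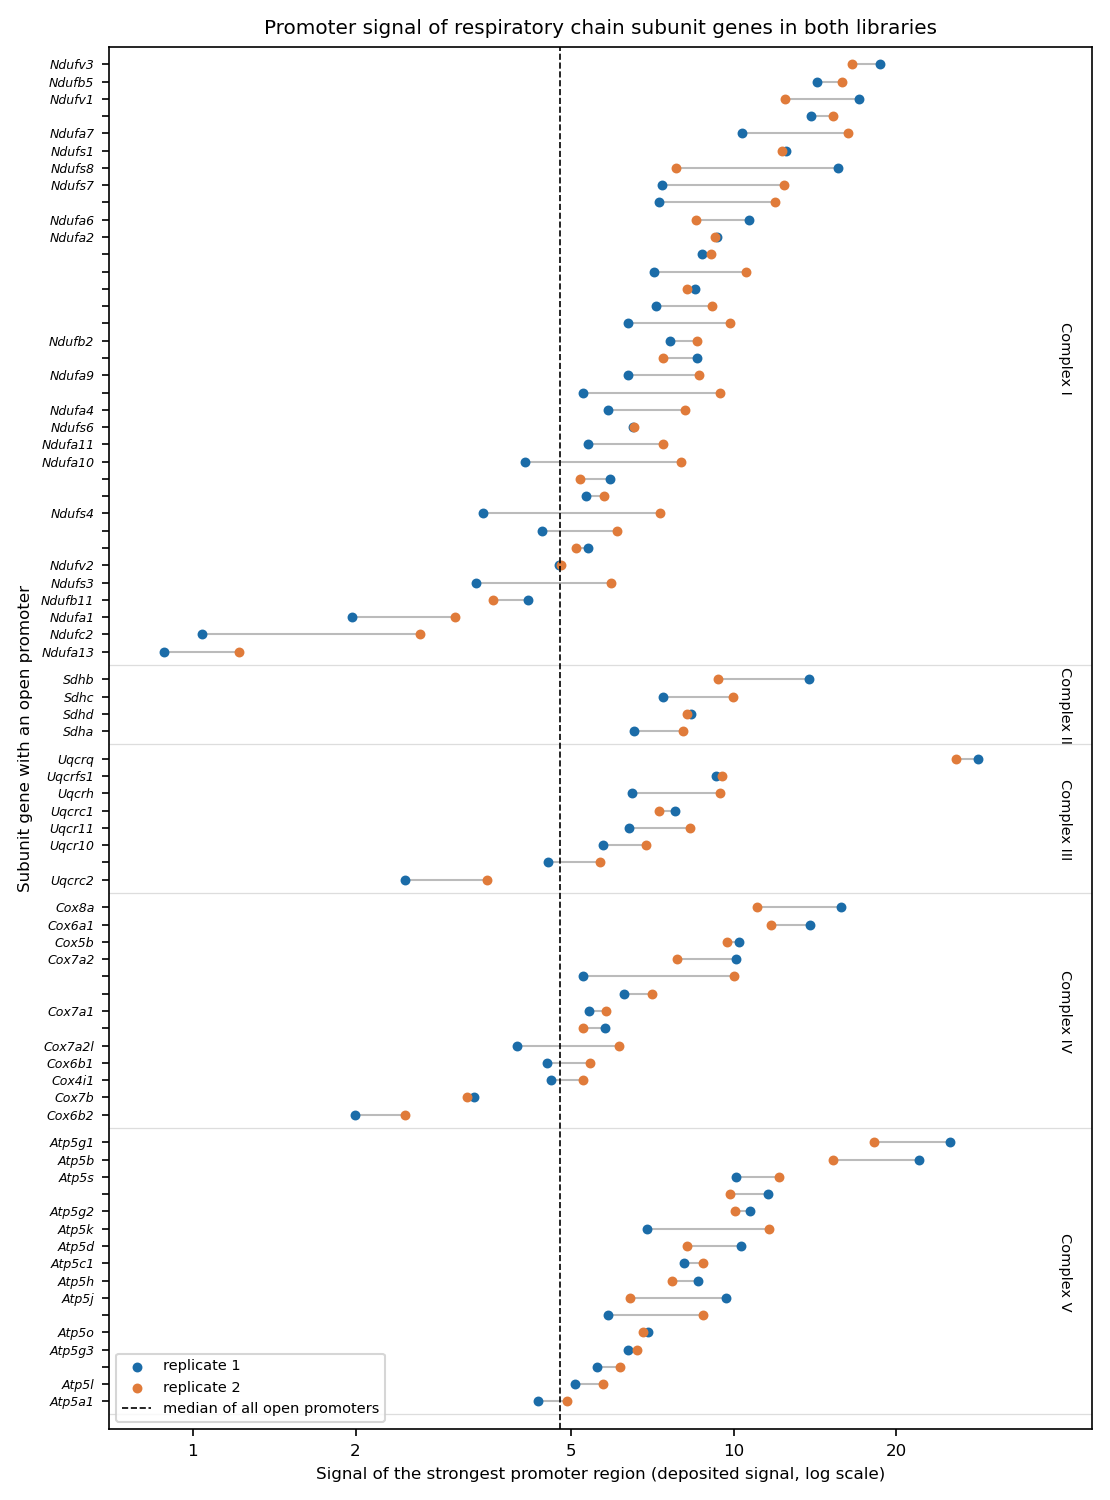
Signal of the strongest promoter region of 76 of the 77 subunit genes with an open promoter, by complex, on a log scale, with labels on the genes named in the text. Points are the libraries, joined by a line, and the dashed line is the median of all open promoters (4.78); Uqcrq stands highest, and Ndufa13 and Ndufc2 lowest.

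Complex I takes electrons from NADH, and 7 of its nuclear subunits form the core that binds flavin and iron-sulphur clusters. All 7 were open, with a median signal of 11.7, beside 7.50 for the 29 open accessory subunits. Ndufv1, which binds NADH and flavin, had a signal of 17.0 in replicate 1 and 12.5 in replicate 2. Ndufs1, the largest iron-sulphur subunit, had 12.5 in replicate 1 and 12.3 in replicate 2. These libraries differed more for Ndufv1 than for Ndufs1, and their means stood at percentiles 93.4 and 88.3 of open promoters. Ndufs8, which carries iron-sulphur clusters, had 15.6 in replicate 1 and 7.82 in replicate 2. Ndufs8 had the widest gap between libraries among the core subunits, close to 2-fold and higher in replicate 1. Ndufs7, which carries the last cluster before quinone, had 7.38 in replicate 1 and 12.4 in replicate 2. The weakest of the core were Ndufv2, at 4.75 in replicate 1 and 4.80 in replicate 2, and Ndufs3, at 3.34 in replicate 1 and 5.94 in replicate 2. The mean of Ndufv2 lay at the median of all open promoters, and that of Ndufs3 just under it.

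Among the accessory subunits of complex I, Ndufv3, a small subunit of the NADH-binding part, had the highest signal, 18.6 in replicate 1 and 16.5 in replicate 2, at chr17:31519941-31520180. Ndufb5, of the membrane arm, had 14.2 in replicate 1 and 15.9 in replicate 2. Both regions also lay in the window of another gene, Wdr4 for Ndufv3 and the mitochondrial ribosomal protein gene Mrpl47 for Ndufb5. At the low end, Ndufa13, also known as GRIM-19, had 0.885 in replicate 1 and 1.22 in replicate 2, or 107 and 146 steps. Its region, chr8:69902101-69902580, also reached the windows of Tssk6 and Yjefn3 and was the single open subunit promoter with no shared footprint. Ndufc2, of the membrane arm, had 1.04 in replicate 1 and 2.63 in replicate 2. Both signals of Ndufc2 were below the median of all open promoters, and the libraries differed by more than 2-fold. The 3 X-linked subunit genes, Ndufa1, Ndufb11 and Cox7b, all stood below that median as well, at 2.51 ± 0.772, 3.87 ± 0.406 and 3.26 ± 0.0747 (SD, n = 2). They were singled out after their values were seen, and open X-linked promoters of all genes had a median of 2.58, beside 4.87 on the autosomes.

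In complex II, succinate dehydrogenase, all 4 subunits were open and lay above the median of all open promoters. Sdhb, the iron-sulphur subunit, had the highest mean, with 13.8 in replicate 1 and 9.36 in replicate 2, although in replicate 2 Sdhc stood above it. The membrane anchors Sdhc and Sdhd had means of 8.70 ± 1.83 and 8.26 ± 0.0980, and the flavoprotein Sdha had 7.30 ± 1.06 (SD, n = 2). The highest and lowest of the 4 means differed by 1.59-fold, against 25.7-fold over all open subunit promoters.

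In complex III, which passes electrons to cytochrome c, the small subunit Uqcrq had the strongest promoter of all 85 genes. Its region, chr11:53430901-53431260, had a signal of 28.3 in replicate 1 and 25.8 in replicate 2, at the 99.9th percentile of open promoters. This region began 74 bases upstream of the annotated TSS and lay wholly within Gdf9, a growth factor gene on the other strand, as RefSeq annotates it. Uqcrfs1, the Rieske iron-sulphur protein, had 9.29 in replicate 1 and 9.54 in replicate 2. Uqcrh, the hinge protein, had 6.48 in replicate 1 and 9.45 in replicate 2 in its strongest region, whose centre lay 340 bases upstream in the direction of Lrrc41. The region over the Uqcrh start itself had 6.70 in replicate 1 and 5.99 in replicate 2. Thus the Uqcrh value depends on which region is taken, while both regions exceed the median of open promoters. Uqcrc2, a core protein of the complex, was the weakest of the 8, with 2.47 in replicate 1 and 3.50 in replicate 2.

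Complex IV, cytochrome c oxidase, was the complex with most closed genes, 5 of 18. Its strongest promoters by the mean were Cox8a, with 15.8 in replicate 1 and 11.0 in replicate 2, Cox6a1, with 13.8 in replicate 1 and 11.7 in replicate 2, and Cox5b, with 10.2 in replicate 1 and 9.71 in replicate 2. All 3 encode small nuclear subunits around the catalytic core, whose own subunits are encoded in mitochondrial DNA. Their means stood at percentiles 90.8, 89.2 and 80.7 of open promoters.

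In complex V, the ATP synthase, Atp5g1 was strongest at 25.1 in replicate 1 and 18.2 in replicate 2. It encodes the c subunit of the rotating membrane ring. Atp5b, the catalytic beta subunit, had 22.0 in replicate 1 and 15.3 in replicate 2. Both were higher in replicate 1. Atp5s, also known as factor B, came next by the mean, with 10.1 in replicate 1 and 12.1 in replicate 2. Atp5a1, which encodes the alpha subunit that pairs with beta in the catalytic head, had the weakest open promoter of the complex, 4.35 in replicate 1 and 4.92 in replicate 2. The mean signals of the alpha and beta subunit promoters thus differed by 4.03-fold, more than the libraries differed for either gene.

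Within families of paralogues, the broadly used form was open and the tissue-type form mostly was not. Of 19 genes in 8 families of paralogues 13 were open, beside 64 of the 66 other subunit genes. Over all protein-coding genes 63.0% were open, and over those with a CpG-poor promoter 33.4%. The 6 closed ones were Ndufa4l2, known to be induced by hypoxia, Cox4i2, known from lung, Cox6a2 and Cox8b, known from heart and skeletal muscle, and Cox7b2 and Cox8c, known from testis. None of the 6 had a CpG-rich promoter. In both libraries, no base within 500 of their most upstream coding TSS was listed at a false discovery rate (FDR) up to 0.05. Cox4i2 has another coding TSS, whose window was not searched for listed bases. The share among closed promoters of all genes was not counted. None of the 8 closed subunit genes had a peak of either library in its promoter windows, beside 9.70% of all genes without an open promoter. With 8 genes, this count does not set them apart from that share. The broadly used partner was open in every family: Ndufa4 had 5.85 in replicate 1 and 8.12 in replicate 2, Cox4i1 had 4.61 in replicate 1 and 5.28 in replicate 2, and Cox7b had 3.32 in replicate 1 and 3.21 in replicate 2.

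**Figure D2:**
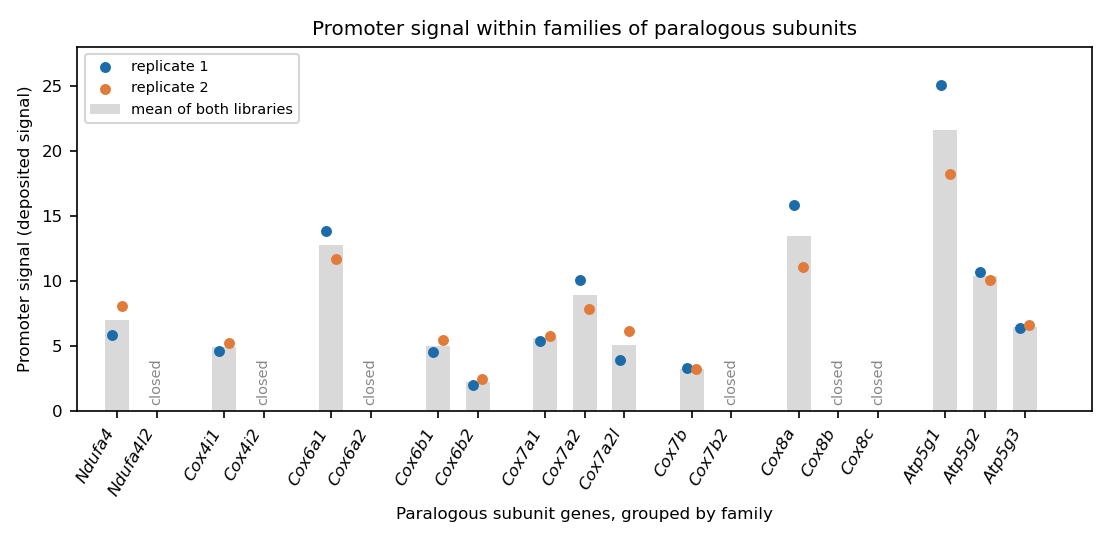
Promoter signal of 19 paralogous subunit genes, grouped by family; points are the libraries, bars their mean, and "closed" marks a gene with no region in its promoter window. The 6 closed genes each have an open partner in their family, and all 3 c-subunit genes are open.

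Not every tissue-type form was closed. Cox7a1, known from muscle and brown fat, had 5.40 in replicate 1 and 5.80 in replicate 2 in a CpG-poor promoter with 4 shared footprints. Its broadly used partner Cox7a2 had 10.1 in replicate 1 and 7.85 in replicate 2. Cox7a2 was higher in both libraries, and the third member, Cox7a2l, a factor of supercomplexes, had 3.97 in replicate 1 and 6.14 in replicate 2. Cox6b2, known from testis, had 1.99 in replicate 1 and 2.47 in replicate 2, below its partner Cox6b1, which had 4.52 in replicate 1 and 5.44 in replicate 2. The striated muscle markers Myh6, Myh7 and Ckm and the germ cell markers Prm1 and Prm2 were closed in the same libraries, while Actn2 and Dazl were open at the signals given above. Their part in the signals of Cox7a1 and Cox6b2 was not tested. The 3 genes that encode the same mature c subunit differed in order without overlap between genes: Atp5g1 had the values given above, Atp5g2 had 10.7 in replicate 1 and 10.1 in replicate 2, and Atp5g3 had 6.39 in replicate 1 and 6.62 in replicate 2.

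The 2 other closed genes belonged to complex V, and for Atp5f1 the call turned on the annotated start. Atp5f1, subunit b of the ATP synthase stalk, has its most upstream protein-coding TSS 579 bases from a shared region at chr3:105959181-105959520. That region had a signal of 8.90 in replicate 1 and 9.64 in replicate 2 and lay in the promoter window of Wdr77. It held the starts of 3 Atp5f1 transcripts annotated as retained introns or nonsense-mediated decay. Within 500 bases of the most upstream coding TSS, 532 bases in replicate 1 and 523 in replicate 2 were listed at an FDR up to 0.05. Counting the starts of any transcript gave 78 open genes. The second model named Atp5o spans chr16:91684398-91926982, has 1 annotated start, 1339 bases from the nearest shared region, and was closed, while the usual Atp5o, which encodes the stalk subunit OSCP, was open at 6.94 in replicate 1 and 6.80 in replicate 2. Of the closed paralogues, Ndufa4l2 had the strongest region nearby, chr10:127512881-127513120, at 1847 bases from its TSS. That region had a signal of 3.59 in replicate 1 and 9.15 in replicate 2, a log2 ratio of 1.35 between the libraries.

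The libraries gave similar signals at most subunit promoters. The median log2 ratio of replicate 2 over replicate 1 was 0.13 (SD 0.43 over 77 genes), beside 0.12 (SD 0.41) over all open promoters. Of the 77 genes, 47 were higher in replicate 2, beside 8472 of all 13643 open promoters. An absolute log2 ratio under 0.5 was seen in 55 of the 77, and the share over all open promoters was not counted. A ratio beyond 2-fold was seen in 2 genes (2.60%), beside 2.87% of all open promoters: Ndufc2, at a log2 ratio of 1.33, and Ndufs4, at 1.09. Ndufs4, an accessory subunit whose loss causes brain disease in mice, had 3.45 in replicate 1 and 7.32 in replicate 2. Next came Ndufa10, an accessory subunit, at 0.96. In the other direction Ndufs8 was at -0.99, Atp5j, the coupling factor F6, at -0.59, and Sdhb at -0.56. Of the 10 strongest subunit promoters 7 were higher in replicate 1, beside 23 of the other 67. The share among strong promoters of all genes is not given here.

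**Figure D3:**
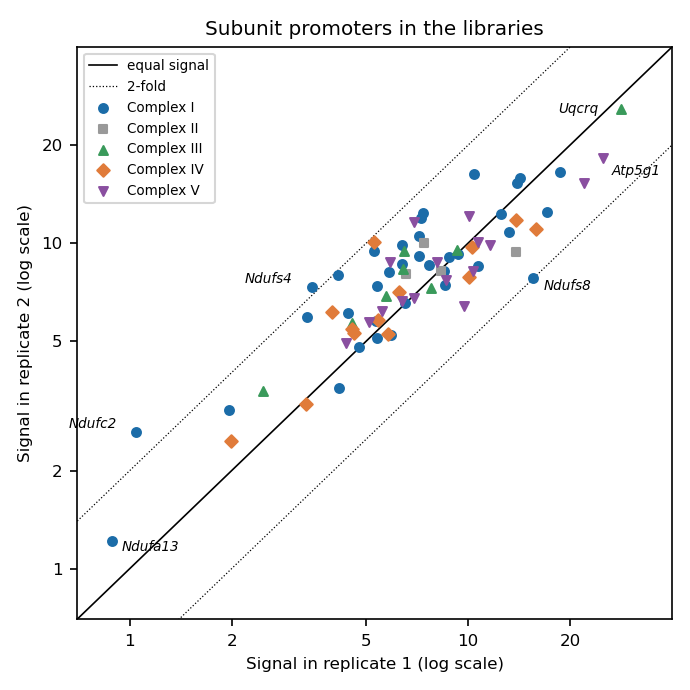
Signal of the 77 open subunit promoters in replicate 2 against replicate 1, both on a log scale, with markers by complex. The solid line marks equal signal and the dotted lines a 2-fold difference, which Ndufc2 and Ndufs4 exceed and Ndufs8 nearly reaches.

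Subunit promoters were often shared with a neighbouring gene. The strongest region lay in the window of another protein-coding gene for 28 of 77 genes (36.4%), beside 16.9% of all open promoters. For 23 of these 28 the partner started upstream on the other strand, head to head. How often this holds for shared regions of all genes was not counted, so it is not a trait of subunit genes alone. Partners with a role in mitochondria or protein synthesis included Timm8b, of protein import, beside Sdhd, Mrpl36 beside Ndufs6, Mrpl47 beside Ndufb5, the ribosomal protein gene Rps28 beside Ndufa7, and the elongation factor gene Eef1b2 beside Ndufs1. Atp5j shared its strongest region, chr16:84834761-84835160, with Gabpa, which encodes the DNA-binding part of the ETS factor GABP. That region was centred 542 bases inside Atp5j and had 9.70 in replicate 1 and 6.43 in replicate 2, while the region over the Atp5j start had 3.10 and 3.23. The signal of a shared region belongs to both genes and cannot be divided between them. Where no other gene shared the region, 49 subunit promoters had a median signal of 8.10, beside 4.21 for all such promoters. The 28 shared ones had 7.63, beside 7.46.

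Footprints lay close around the start sites. The median was 4 shared footprints per open subunit promoter, beside 3 over all open promoters and 4 over the open CpG-rich ones, and 76 of 77 had at least 1, beside 92.6%. Per 100 bases of region the medians were 1.67 for subunit genes, 1.36 for all and 1.5 for the CpG-rich ones. Within 300 bases upstream of the TSS there were 2.82 shared footprints per subunit promoter, beside 2.45 per open promoter, and within 300 bases downstream 1.94, beside 1.31.

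**Figure D4:**
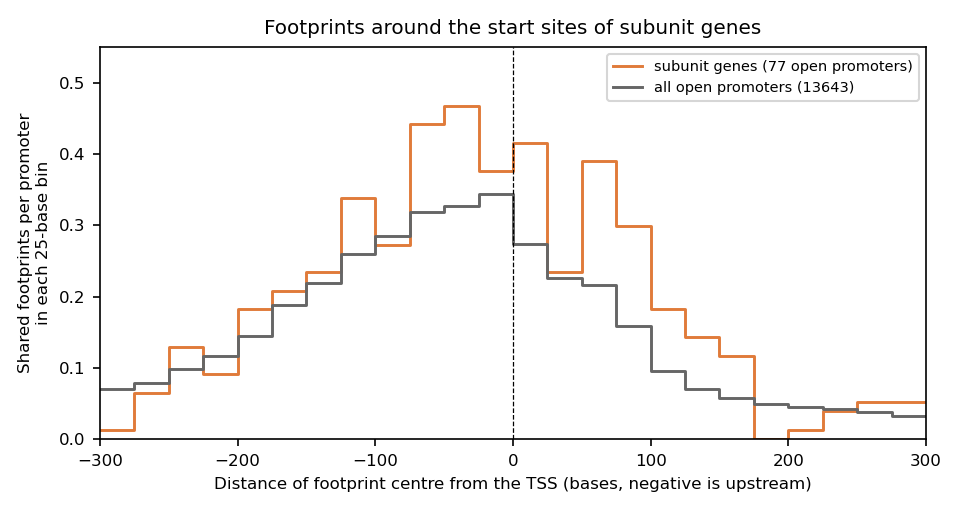
Shared footprints per promoter in 25-base bins by distance of their centre from the TSS, for the 77 open subunit promoters and for all 13643 open promoters. Both profiles peak near the TSS, and the subunit genes reach 0.468 per promoter between 50 and 25 bases upstream, beside 0.327 for all.

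Footprint number varied between 0 in Ndufa13 and 12 in Ndufa4, and 61 genes had between 3 and 6. The Ndufa4 region, chr6:11907401-11907960, also spanned the start of the chromatin gene Phf14. Ndufs7 was next with 11 shared footprints in chr10:80248981-80249480, a region that also held all of the RefSeq tRNA gene n-TNgtt7 (chr10:80249159-80249232) and 56 bases of n-TFgaa3 (chr10:80248964-80249036). The capitals that open the Ndufs7 sequence above begin in n-TNgtt7 and run past its end. Ndufs7 was the single open subunit promoter that overlapped a RefSeq tRNA gene. Uqcrq, Uqcrc1, Atp5g1, Atp5c1 and Atp5j had 8 each.

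Consensus motifs were searched on both strands in the 250 bases before to 50 after the TSS nearest the strongest region. The letters were GCATGCGC for NRF1, CCGGAAGT for ETS, AAGATGGCG for YY1, GGGCGG for SP/KLF, TGACGTCA for CRE, CCAAT for NF-Y, CACGTG for E-box, TCAAGGTCA for ERR, CTACAATTC for THAP11/ZNF143 and CAAAGTCCA for HNF4. A match lay in a footprint where at least 50% of its bases did. No motif of the set contains another. The sites that follow are shown because each is an NRF1, ETS, ERR or THAP11/ZNF143 match named below, with 10 bases on each side read from GRCm38.p6 and the match in capitals. Where NRF1 matched on both strands at once, the overlapping matches appear as 1 longer run.
Sdhb NRF1 (chr4:140961207-140961234, plus strand): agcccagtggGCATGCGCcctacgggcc
Cox6a1 NRF1 (chr5:115349101-115349130, minus strand): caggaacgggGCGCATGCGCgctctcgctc
Atp5k NRF1 (chr5:108434430-108434459, minus strand): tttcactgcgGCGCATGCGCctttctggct
Atp5l NRF1 (chr9:44920965-44920992, minus strand): aaccaataacGCATGCGCatttccccca
Uqcr11 NRF1 (chr10:80406808-80406835, minus strand): tcgccttcacGCATGCGCtatacgtctg
Ndufa6 NRF1 (chr15:82354357-82354384, minus strand): ccgcggtagaGCATGCGCattgcagagc
Atp5g2 NRF1 (chr15:102671070-102671099, minus strand): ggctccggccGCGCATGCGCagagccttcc
Ndufa11 NRF1 (chr17:56717692-56717721, plus strand): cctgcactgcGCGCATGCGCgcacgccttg
Cox8a ETS/GABP (chr19:7217568-7217595, minus strand): cagcgccggaACTTCCGGctggttcggc
Uqcrh ETS/GABP (chr4:116075064-116075091, minus strand): agtatgccgcACTTCCGGccaggtcgcc
Atp5g3 ERR (chr2:73911360-73911388, minus strand): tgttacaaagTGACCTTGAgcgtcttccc
Sdhd ERR (chr9:50603795-50603823, minus strand): ggttgtagagTGACCTTGAgccctcgaaa
Atp5d THAP11/ZNF143 (chr10:80142184-80142212, plus strand): gcgaagaaaaCTACAATTCccagaatgac
Uqcr10 THAP11/ZNF143 (chr11:4704383-4704411, minus strand): tacagagaaaCTACAATTCccataaagca

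NRF1, named for a factor that activates many nuclear genes of mitochondria, matched in 8 of 77 open subunit promoters (10.4%), beside 5.22% of open promoters. In all 8 genes every match lay in a shared footprint, namely in Sdhb, Cox6a1, Atp5k, Atp5l, Uqcr11, Ndufa6, Atp5g2 and Ndufa11. Among all open promoters with an NRF1 match, 86.1% had a match in a shared footprint. The share of open subunit promoters with a match in a footprint was thus 10.4%, beside 4.49% of open promoters. These genes belong to all 5 complexes, and 6 of the 8 genes had a site centred within 100 bases of the TSS. Among CpG-rich open promoters NRF1 matched in 7 of 66 (10.6%), beside 6.29%. The closed gene Cox8c also held an NRF1 match, at chr12:102899249-102899256, outside any footprint.

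ETS matched in 7 open subunit promoters (9.09%), beside 7.82%, and in footprints in 4 (5.19%), beside 4.21%, namely Ndufs1, Uqcrh, Cox8a and Atp5a1. Both shares were close to those of all open promoters. Among CpG-rich promoters ETS matched in 6 of 66 (9.09%), beside 9.12%. Cox8a held 2 ETS matches, 1 of them in a footprint. YY1 matched in 5 genes (6.49%), beside 2.98%, among them Ndufa9, Ndufs4, Atp5h and Ndufa2, and in footprints in 2 (2.60%), beside 1.44%. With the most upstream TSS YY1 matched in 3 open subunit promoters (3.90%), beside 2.59%, and with 500 bases on each side in 17 (22.1%), beside 5.75%. The YY1 letters AAGATGGCG in the capitals of the Ndufs7 sequence above are not among these matches, since that RefSeq start lies 328 bases after the TSS searched. NRF1, ETS or YY1 matched in 18 of the 77 (23.4%), beside 15.0%, and 2 genes matched more than 1 of them.

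SP/KLF matched in 32 of 77 open subunit promoters (41.6%), beside 65.5% of open promoters, and in footprints in 26 (33.8%), beside 47.7%. Among CpG-rich promoters the share was 30 of 66 (45.5%), beside 73.4%. NF-Y matched in 30 (39.0%), beside 38.7%, and in footprints in 12 (15.6%), beside 13.1%. Atp5g1 and Atp5b each held 3 NF-Y matches in footprints, and the Atp5g1 matches can be read as CCAAT or its reverse ATTGG in the capitals above.

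CRE matched in 4 (5.19%), beside 3.51%, and in footprints in 3 (3.90%), beside 3.08%, namely Ndufa10, Ndufb2 and Uqcrfs1. E-box matched in 7 (9.09%), beside 10.3%. ERR, the site of estrogen-related receptors, matched in 2 open subunit promoters (2.60%), beside 0.257%, Atp5g3 and Sdhd, and neither lay in a footprint. Such matches were rarely in footprints over all open promoters too, in 2 of the 35 with a match. THAP11/ZNF143 matched in 2, beside 0.733%, both in footprints, beside 0.352%, in Atp5d and Uqcr10. HNF4, named for a factor of proximal tubule and liver, matched in none, beside 0.476%. With counts this low, 1 gene more or less moves a share by 1.30 percentage points.

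**Figure D5:**
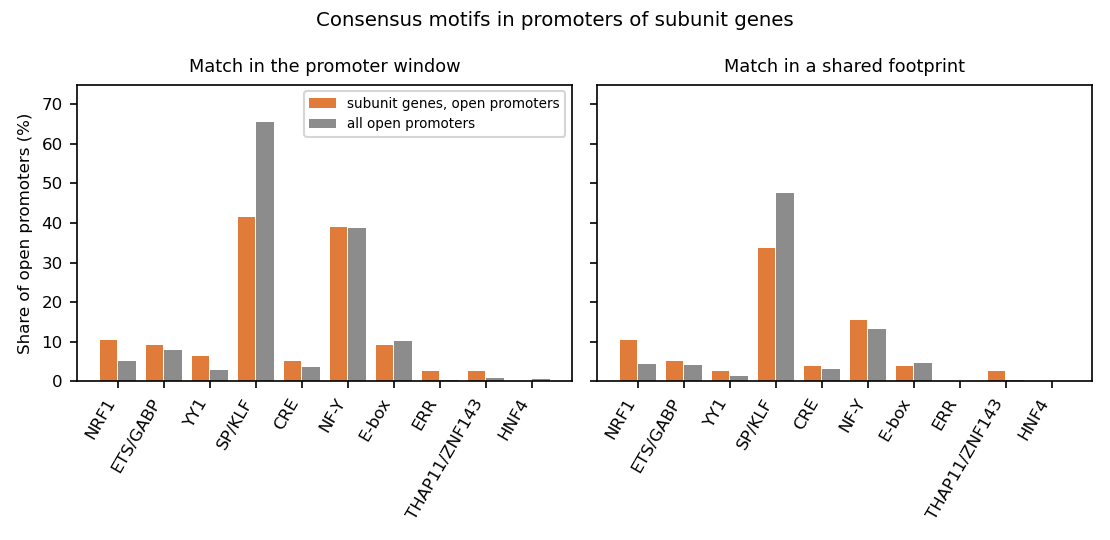
Share of open promoters with a motif match in the window (left) and in a shared footprint (right), for the 77 open subunit promoters and for all 13643 open promoters. NRF1 is more frequent among subunit genes in both panels and SP/KLF less frequent, while NF-Y and ETS are close to the share of all open promoters.

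Away from promoters, subunit genes had regions nearby about as often as other genes. Shared regions outside all promoter windows were counted for each gene from 10 kb before to 10 kb after its body. At least 1 was present for 65 of 85 genes (76.5%), beside 72.4% of all genes, and the median was 2 for both. The mean was 2.15, or 1.93 without the second Atp5o model, beside 3.04, and the median gene length was 7284 bases for subunit genes, beside 17379 for all. Among genes of 3 to 15 kb the mean was 2.16 for 51 subunit genes, beside 1.51 for all 7660. These groups differ in promoter type, with 43 of the 51 CpG-rich, beside 2951 of the 7660. Over genes of any length the mean was 4.18 for CpG-rich genes and 1.88 for CpG-poor ones. The 178 distinct regions had a median signal of 1.10, beside 0.918 for all distal regions, and 130 of them were under 2. Of these regions 51 lay in the body of a subunit gene, 37 in introns and 14 overlapping exons, and 74 lay in the body of a gene that encodes no subunit, with 20 regions counted in both. The long second Atp5o model alone gave 16 of the 37 intronic regions, and without it 21 were intronic, 58 lay in a gene that encodes no subunit and 4 were counted in both.

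The strongest distal region lay in an intron of Sdhb at chr4:140963041-140963260, centred 1948 bases after the start, with 9.88 in replicate 1 and 7.98 in replicate 2. It was nearly as strong as the Sdhb promoter in replicate 2. The next was chr1:63181141-63181340, upstream of Ndufs1, with 5.28 in replicate 1 and 7.80 in replicate 2. Most distal regions were counted for the second Atp5o model, with 21 over its long span, followed by Atp5o, Atp5d and Ndufa4l2 with 7 each and Sdhc with 6. The closed muscle-type gene Cox8b had 5 regions within 10 kb, the strongest at chr7:140908641-140908860 with 4.09 in replicate 1 and 5.14 in replicate 2. Of the 8 closed genes 7 had at least 1 distal region, beside 72.4% of all genes, and Cox8c had none. The 7 include the long second Atp5o model, and with 8 genes the count does not set them apart from that share. Of 10731 CpG-poor genes, 4487 had none. An ERR match was found in 4 of the 178 distal regions (2.25%), beside 0.982% of all distal regions, among them chr16:91936421-91936620 upstream of Atp5o.

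Other genes of the same pathway were open to a like extent, beside 63.0% of all protein-coding genes and 91.9% of CpG-rich ones. Most were CpG-rich themselves, namely 39 of 46 assembly factors, 13 of 14 electron carriers and partners, 13 of 13 cycle enzymes and 9 of 11 regulators. Of 46 assembly factors, which build the complexes but are not part of them, 45 were open with a median signal of 8.52, and Sdhaf1 was closed. Of 14 electron carriers and their partners 13 were open, with Cycs, the somatic cytochrome c, at 17.3 in replicate 1 and 17.1 in replicate 2, while Cyct, the testis form, was closed. All 13 enzymes of the citric acid cycle were open, with a median of 8.75 and Mdh2 highest at 20.2 and 16.4. All 11 regulators were open, with Esrra, an estrogen-related receptor, at 30.7 in replicate 1 and 26.4 in replicate 2. Esrra stood above every subunit promoter in both libraries, while the regulator genes Nrf1, Gabpb1, Ppargc1a and Ppargc1b were below the median of open promoters.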

How the data were processed

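Per the labels, 2 kidney DNase-seq libraries (replicates 1 and 2) were processed on mm10, each on its own. No source used here names the aligner or the callers. The authors deposited per library a longer and a shorter peak list with a signal per peak, a false discovery rate (a q-value, none above 0.05) for runs of bases, and footprints at a constant level of 0.01. The signal is the authors' own value of a peak, on a scale no source here names.

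From these, peaks of the longer lists that overlapped by at least 1 base were joined, and joined regions with peaks of both libraries were kept as shared regions, each with the highest signal per library. Errors are the SD of 2 libraries. Genes and starts were taken from GENCODE M21 and sequence from GRCm38.p6 (same chromosome coordinates as mm10). Python 3.11.15, numpy 2.4.6, pandas 2.3.3, bedtools 2.31.1 and matplotlib 3.10.9 were used, and the interval and motif code was checked on simulated intervals. Percentiles are among all open promoters. No p-value was computed, since there is 1 group.

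Named were, per complex, the 3 strongest and all closed genes; all paralogues; the complex I core; the 5 genes with most distal regions and the 5 with most footprints (with ties); the 3 largest library ratios each way; and NRF1, ETS or ERR matches in footprints. Some items that fall under this rule are not reported here. Others named, such as the weakest promoters, the X-linked genes, promoter partners and matches of other motifs, were chosen after their values were seen. The members, lists and motifs were chosen with earlier results of these data known.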

Additional observations from a re-analysis of the deposited data

How the results depend on the processing

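The number of subunit genes with an open promoter was 77 of 85 in the report and between 75 and 81 under 11 alternatives: 77 with a window of 100 bases, 81 with 2000 bases, 76 with the shorter peak list, 77 where peaks had to overlap by at least 50% of the shorter, 76 with the most upstream TSS alone, 75 of 82 with strict names, 77 with peaks at or above the median signal and 77 in each library alone. The TSS of any transcript (78) and leaving out the second Atp5o model (77 of 84) were chosen after seeing the data. The median promoter signal of 7.97 was between 6.90 and 8.19 when 1 library was left out, and between 7.53 and 8.10 under the other alternatives, 1 of them, regions in no other gene's window, chosen after seeing the data. The median number of footprints, 4 when shared, was 5 in each library alone and 4 otherwise. The median log2 ratio between libraries stayed between 0.11 and 0.14.

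The median of 2 distal regions was 0 in the gene body alone, 6 with a flank of 50 kb and 1 with the shorter peak list. It was 2 with either replicate left out. At least 1 motif matched in 68 of 85 promoter windows (80.0%), beside 73.6% of all protein-coding genes, in 64 (75.3%), beside 71.5%, with the most upstream TSS, in 78 (91.8%), beside 94.0%, with 500 bases on each side, and in 62 of the 77 open ones (80.5%), beside 84.7%. Without SP/KLF and NF-Y, an alternative chosen after seeing the data, it was 30 (35.3%), beside 20.3%. With 500 bases on each side, ERR matched in 8 genes (9.41%, beside 1.76% of all genes) instead of 2, YY1 in 17 of 85 (beside 3.85%) instead of 5, ETS in 11 (12.9%, beside 7.49%) instead of 7 and SP/KLF in 63 (74.1%, beside 63.4%) instead of 35 (41.2%, beside 47.4%). Among open promoters the SP/KLF share was below that of all genes in both windows, at 75.3%, beside 84.2%, in the wider one. With the most upstream TSS, YY1 matched in 3 (3.53%, beside 1.72%) and THAP11/ZNF143 in 1 instead of 2. Intronic distal regions, 37 in all, were 21 without the second Atp5o model, an alternative chosen after seeing the data.

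No paired analysis was possible because there is 1 group. With 2 libraries, the SD of a region rests on a single difference. A closed subunit promoter means that no peak was listed in its promoter windows at this depth. A shared region counts for each gene whose window it meets.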

Other observations

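The shared region nearest to a closed paralogue was higher in replicate 2 for all 6 of them. The signals were 1.36 in replicate 1 and 2.54 in replicate 2 for Cox4i2, at 11417 bases from the TSS, and 0.422 and 1.37 for Cox6a2, at 1914 bases. Near Cox8b, at 2895 bases, they were 2.12 and 4.68. Near Cox7b2 and Cox8c, known from testis, the nearest regions were weak in both libraries, at 0.165 and 0.400 and at 0.190 and 0.242. The region near Ndufa4l2 is given in the report. These regions were singled out after their values were seen, and at open subunit promoters 47 of 77 were higher in replicate 2. The share over all distal regions is not given here.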
